A study of Mus musculus with 4 samples.

Results

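Respiratory complex I was represented by the genes whose single annotated symbol begins with Nduf, which name its nuclear-encoded subunits and part of its assembly factors. Of 17097 genes measured, 42 met this rule, and each gene was read from its brightest probe set, by the mean of the 4 arrays. They were compared between mouse brown adipocytes expressing a short hairpin RNA (shRNA) against Blnc1, brown fat long noncoding RNA 1, and brown adipocytes expressing a scrambled hairpin. Each group had 2 arrays, labelled as biological replicates, and all cells were taken at day 6 of differentiation. Total RNA (250 ng an array) was amplified by in vitro transcription from the poly(A) tail and hybridised to Affymetrix mouse PM strip arrays. Whether the replicates came from separate cultures, how many hairpins were used and where the cells came from are not given in the sources used here, so p-values measure only the spread between these samples. The platform annotation names no probe set for Blnc1, and the knockdown itself was not checked.

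Complex I is the entry point of electrons from NADH into the mitochondrial respiratory chain, which in brown fat drives heat production through the uncoupling protein Ucp1. Its peripheral arm is made of an N module, where NADH is oxidised, and a Q module, where ubiquinone is reduced, and its membrane arm pumps protons. Core subunits have bacterial counterparts and carry the chemistry, supernumerary subunits surround them, and assembly factors join the pieces without staying in the finished enzyme. The mitochondrially encoded core subunits, and some nuclear-encoded genes such as Ndufa13, Ndufb1, Ndufb6 and Ndufaf7, were not analysed here.

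Of the 42 Nduf genes, 15 (35.7%) were lower in the Blnc1 shRNA cells at an adjusted p of 0.05 by limma, 0 were higher and 27 passed in neither direction. Among all genes 7.18% were called lower and 11.4% higher. At an unadjusted p under 0.05 the Nduf counts were 24 lower and 0 higher. Both knockdown arrays lay below both scramble arrays for 36 Nduf genes, against 34.3% of all genes, and above them for 2, against 28.3%. The median log2 fold change, Blnc1 shRNA minus scramble, was -0.27 for the Nduf genes and -0.04 for all genes. Nduf probe sets were bright, and 632 genes with a mean log2 value of at least 9 had a median of -0.03, with 10.9% called lower, 12% higher and 48.4% with both knockdown arrays below both scramble arrays. In each array the median log2 value of the 42 genes was 9.94 and 9.90 with Blnc1 shRNA, against 10.17 and 10.18 with scramble. The changes were modest, from -0.84 for Ndufa4l2 to 0.09 for Ndufs1. The sign of the log2 fold change was negative for 40 genes, for 37 after quantile normalization and for 35 after centring each array on its median. The count of calls depended on single arrays, with 1 gene called lower without knockdown replicate 1, 3 without knockdown replicate 2, and 10 each without scramble replicate 1 or scramble replicate 2. It was 32 where the limma prior was allowed to follow brightness, among them 7 Q module genes, and 10.5% of all genes were then called lower. A fit with an array left out has 1 array in a group. For this and later counts of that kind, the share of all genes called is not given here. The Nduf median log2 fold change was from -0.30 to -0.28 with an array left out.

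**Figure D1:**
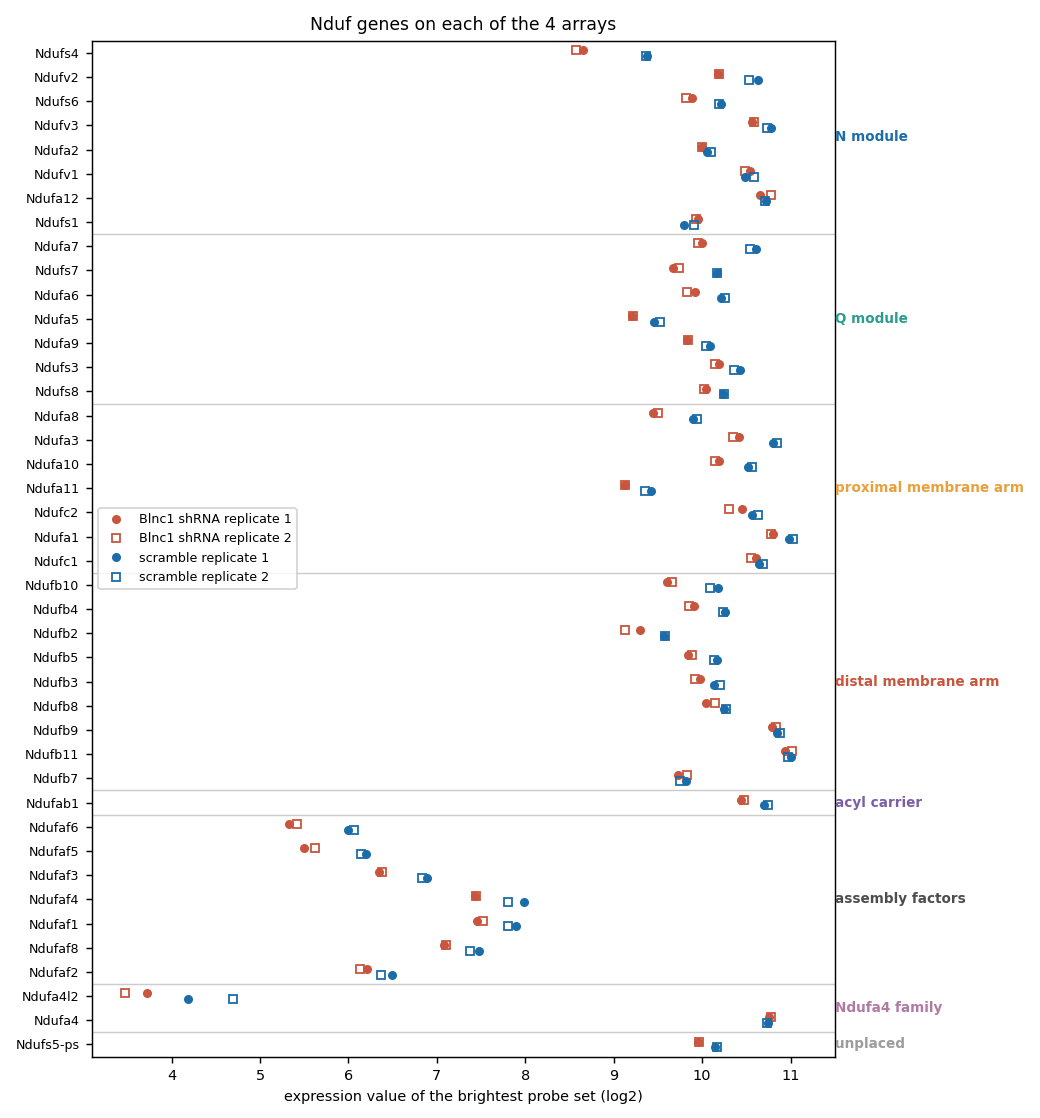
Deposited expression value (log2, horizontal axis) of the brightest probe set of each of the 42 Nduf genes on the 2 Blnc1 shRNA and the 2 scramble arrays, 1 gene a line and 1 point an array. Both knockdown points lie left of both scramble points for 36 genes, and the group means differ most for Ndufa4l2 and Ndufs4.

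Promoter sequences of 36 of the 42 genes were found in RefSeq (GRCm38.p6), and the 250 bases before the gene start were searched on both strands for motifs of factors known to act on respiratory chain genes. They are shown because 4 of the 13 lower genes with a promoter, Ndufaf4, Ndufa8, Ndufb4 and Ndufs6, held the motif of nuclear respiratory factor 1 (NRF1), GCGC and TGCGC with any 1 base between them, while Ndufs4, the lower gene with the smallest adjusted p, held none of the motifs searched. Capitals mark a match to the NRF1 motif on either strand.
Ndufaf4 (chr4:24897833-24898082, plus strand): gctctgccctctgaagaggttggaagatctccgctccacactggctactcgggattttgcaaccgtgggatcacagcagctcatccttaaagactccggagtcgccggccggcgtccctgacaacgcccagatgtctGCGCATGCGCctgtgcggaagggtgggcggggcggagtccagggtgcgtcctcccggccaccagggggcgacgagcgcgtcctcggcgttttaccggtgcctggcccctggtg
Ndufa8 (chr2:36049339-36049588, minus strand): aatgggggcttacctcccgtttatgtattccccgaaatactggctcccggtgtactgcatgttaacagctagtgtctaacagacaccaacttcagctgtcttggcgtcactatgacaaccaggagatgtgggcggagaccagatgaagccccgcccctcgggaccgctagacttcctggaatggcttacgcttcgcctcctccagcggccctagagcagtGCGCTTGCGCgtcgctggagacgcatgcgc
Ndufb4 (chr16:37654369-37654618, minus strand): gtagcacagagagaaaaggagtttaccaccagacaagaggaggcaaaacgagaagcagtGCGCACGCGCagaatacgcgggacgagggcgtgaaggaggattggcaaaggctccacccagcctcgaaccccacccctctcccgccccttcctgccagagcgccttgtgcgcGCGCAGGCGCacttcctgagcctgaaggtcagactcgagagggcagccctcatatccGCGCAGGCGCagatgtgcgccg
Ndufs6 (chr13:73328483-73328732, minus strand): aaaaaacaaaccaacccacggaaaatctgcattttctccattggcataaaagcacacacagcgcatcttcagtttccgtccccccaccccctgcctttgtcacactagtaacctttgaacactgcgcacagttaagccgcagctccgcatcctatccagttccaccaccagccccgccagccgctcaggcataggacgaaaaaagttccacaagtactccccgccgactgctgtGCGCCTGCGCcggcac
Ndufs4 (chr13:114388095-114388344, minus strand): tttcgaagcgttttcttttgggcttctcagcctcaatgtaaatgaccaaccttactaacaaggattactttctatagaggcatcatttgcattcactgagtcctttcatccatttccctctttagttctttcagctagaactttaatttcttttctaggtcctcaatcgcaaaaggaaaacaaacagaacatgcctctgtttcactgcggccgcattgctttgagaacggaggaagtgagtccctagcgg
The NRF1 motif stood in promoters of 6 of the 36 Nduf genes (16.7%), the others being Ndufa5 and Ndufa11, and in 3.74% of 32851 promoters of the same length. A Nduf gene was counted where any of its promoter entries held a motif, while the shares of all promoters are of single entries. Ndufb4 held 3 matches. The motif CCGGAAG of the factor GABP stood in 4 Nduf promoters (11.1%), against 6.91% of all, and in 0 of the 13 lower genes. The motifs TCAAGGTCA of the estrogen-related receptors and AAGATGGCG of YY1 stood in 0 of the 36, against 0.387% and 0.606% of all promoters. At shares this low, a count of 0 in 36 promoters cannot set the Nduf genes apart from other genes. The median G and C content was 57.9% in the Nduf promoters and 52.4% in all, and its part in the motif counts was not tested. These matches describe letters in the windows, not binding.

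In the N module, 3 of the 8 genes measured were lower in the Blnc1 shRNA cells, and the module's median log2 fold change was -0.13. Ndufs4 is a supernumerary subunit at the base of the module whose loss in mice gives a model of Leigh syndrome. Its log2 values were 8.65 and 8.58 with Blnc1 shRNA, against 9.38 and 9.37 with scramble. The groups were far apart, and Ndufs4 was 1.69-fold lower (log2 fold change -0.76 ± 0.10 SE, adjusted p = 0.00366 by limma). It was called lower with each of the 4 arrays left out in turn, with a highest adjusted p of 0.0381. Ndufv2, a core subunit with an iron-sulphur cluster next to the flavin, had 10.18 and 10.19 with Blnc1 shRNA, against 10.64 and 10.53 with scramble. Both knockdown arrays lay below the scramble arrays, a 1.32-fold lower level (adjusted p = 0.0356). Ndufs6, a zinc-binding subunit that joins late in assembly, had 9.88 and 9.81 with Blnc1 shRNA, against 10.22 and 10.19 with scramble. It was 1.28-fold lower, just inside the threshold (adjusted p = 0.0496).

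The other two core subunits of the N module passed in neither direction. Ndufv1, which binds NADH and the flavin, had log2 values of 10.54 and 10.49 with Blnc1 shRNA, against 10.48 and 10.59 with scramble. The groups overlapped, with a log2 fold change of -0.02 and a 95% interval from -0.27 to 0.22. Ndufs1, the largest subunit of the peripheral arm and a carrier of iron-sulphur clusters, had 9.95 and 9.93 with Blnc1 shRNA, against 9.79 and 9.90 with scramble. The knockdown arrays lay above the scramble arrays by 0.09, with an interval from -0.15 to 0.33. Ndufa12, which takes the place of the assembly factor Ndufaf2 late in assembly, had 10.65 and 10.78 with Blnc1 shRNA, against 10.73 and 10.71 with scramble, and the groups overlapped. Ndufv3 and Ndufa2, both supernumerary, had log2 fold changes of -0.18 and -0.07. Without knockdown replicate 1, knockdown replicate 2 or scramble replicate 1, the module had 1 gene called lower, and without scramble replicate 2 it had 2. It also had 1 after quantile normalization and 1 after centring. The module's median depended on the probe sets used, and was -0.25 when a gene's probe sets were averaged (4 of 8 genes lower), -0.28 with the dimmest probe set above background, and -0.40 for the 5 genes left without the suffixes a, s and x.

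In the Q module, both knockdown arrays lay below both scramble arrays for each of the 7 genes measured, and 2 of them were lower by the test. The median log2 fold change was -0.28, with a range from -0.60 to -0.21. Ndufa7, a supernumerary subunit of the peripheral arm, had log2 values of 9.99 and 9.95 with Blnc1 shRNA, against 10.60 and 10.54 with scramble. The groups were well apart, and Ndufa7 was 1.52-fold lower (adjusted p = 0.00851). Ndufs7, the core subunit with the iron-sulphur cluster that hands electrons to ubiquinone, had 9.67 and 9.74 with Blnc1 shRNA, against 10.16 and 10.17 with scramble. It was 1.38-fold lower, with no overlap (adjusted p = 0.0210). Ndufs3, a core subunit without a cofactor, and Ndufs8, a core subunit with iron-sulphur clusters, had log2 fold changes of -0.23 (adjusted p = 0.157) and -0.21 (adjusted p = 0.182). Ndufa6, a protein of the LYR family that holds an acyl carrier protein, missed the threshold by little (log2 fold change -0.36, adjusted p = 0.0502). Ndufa5 and Ndufa9, the second of which binds NADPH, had log2 fold changes of -0.28 and -0.23. Leaving out a knockdown array ended the calls of both Ndufa7 and Ndufs7, with 0 genes called in the module without knockdown replicate 1 and 0 without knockdown replicate 2. Without scramble replicate 1 or scramble replicate 2 2 genes of the module were called.

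**Figure D2:**
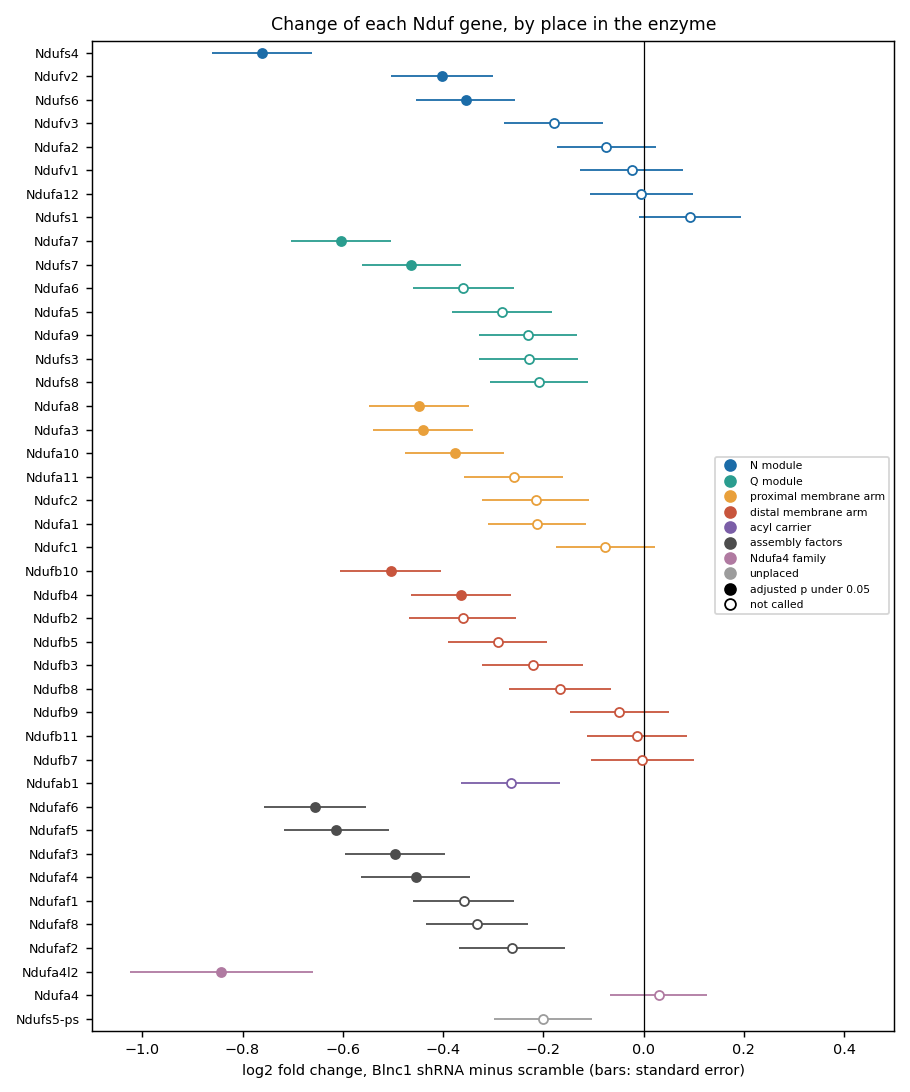
Log2 fold change (horizontal axis, Blnc1 shRNA minus scramble) of each Nduf gene, grouped by place in the enzyme, with bars for the standard error and filled points for an adjusted p under 0.05. All 15 filled points lie left of 0, in every group but the acyl carrier and the unplaced gene, with Ndufa4l2 (-0.84) and Ndufs4 (-0.76) farthest from it.

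In the membrane arm, 3 of 7 genes of the proximal part and 2 of 9 genes of the distal part were lower in the Blnc1 shRNA cells. Median log2 fold changes were -0.26 and -0.22. In the proximal part, Ndufa8, a cysteine-rich subunit facing the intermembrane space, had log2 values of 9.45 and 9.50 with Blnc1 shRNA, against 9.90 and 9.95 with scramble. It was 1.36-fold lower (adjusted p = 0.0238). Ndufa3, a small membrane subunit, had 10.41 and 10.35 with Blnc1 shRNA, against 10.80 and 10.84 with scramble, and was 1.36-fold lower (adjusted p = 0.0252). The 2 groups of arrays were apart for both genes. Ndufa10, which resembles nucleoside kinases, had 10.19 and 10.14 with Blnc1 shRNA, against 10.52 and 10.56 with scramble, and was 1.30-fold lower (adjusted p = 0.0405). The other four genes of the proximal part, Ndufa11, Ndufc2, Ndufa1 and Ndufc1, had log2 fold changes of -0.26, -0.22, -0.21 and -0.08. Knockdown arrays lay below scramble arrays for each of the 7 proximal genes. The proximal count of 3 became 0 without knockdown replicate 1, knockdown replicate 2 or scramble replicate 2, and 2 without scramble replicate 1.

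In the distal part, Ndufb10, a subunit with disulphide bonds on the intermembrane space side, had log2 values of 9.60 and 9.66 with Blnc1 shRNA, against 10.17 and 10.09 with scramble. The arrays of the groups were apart, and Ndufb10 was 1.42-fold lower (adjusted p = 0.0171). Ndufb4 had 9.91 and 9.85 with Blnc1 shRNA, against 10.26 and 10.23 with scramble. It was 1.29-fold lower (adjusted p = 0.0452), and the annotation holds the near copies Ndufb4b and Ndufb4c, so its signal cannot be assigned to 1 copy with certainty. The same holds for Ndufs6 and Ndufa11, which have the near copies Ndufs6b and Ndufa11b. Ndufb2 and Ndufb5 had log2 fold changes of -0.36 (adjusted p = 0.0594) and -0.29 (adjusted p = 0.0868). Ndufb3, Ndufb8 and Ndufb9, another LYR protein, had -0.22, -0.17 and -0.05. Ndufb11, an X-linked subunit, had 10.94 and 11.01 with Blnc1 shRNA, against 11.01 and 10.97 with scramble. Ndufb7, which has paired cysteines like Ndufb10, had 9.73 and 9.83 with Blnc1 shRNA, against 9.82 and 9.75 with scramble. For both genes the groups overlapped, and the 95% intervals ran from -0.25 to 0.22 for Ndufb11 and from -0.25 to 0.24 for Ndufb7. The distal count was 0 without knockdown replicate 1 or 2, 1 without scramble replicate 1 or 2, and 1 after centring.

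Core and supernumerary subunits were described separately, with no test of the difference. Among the 6 core subunits 2 were lower, with a median log2 fold change of -0.22, and among 26 supernumerary subunits 8 were lower, with a median of -0.26. The core values depended on the setting. For the 5 core subunits left without the suffixes a, s and x, the median was -0.40 and 3 were lower. With a limma prior that follows brightness, 4 of the 6 core subunits were lower. Values of the supernumerary subunits in these settings are not given here. Ndufab1, the mitochondrial acyl carrier protein, which also serves fatty acid synthesis, had log2 values of 10.44 and 10.47 with Blnc1 shRNA, against 10.70 and 10.75 with scramble. Its arrays were apart, but its log2 fold change of -0.27 did not pass (adjusted p = 0.110). The pseudogene symbol Ndufs5-ps, whose probe set cannot be told from the near-identical Ndufs5, had 9.95 and 9.96 with Blnc1 shRNA, against 10.14 and 10.17 with scramble (adjusted p = 0.198).

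Of the assembly factors, 4 of 7 were lower in the Blnc1 shRNA cells, with a median log2 fold change of -0.45. With the suffixes a, s and x left out, the median of 6 of them was -0.41. All 7 had both knockdown arrays below both scramble arrays. Among the 5517 genes with mean log2 values from 5 to 9, 564 (10.2%) were called lower and 1196 higher. Both knockdown arrays lay below both scramble arrays for 1673 of these 5517. Ndufaf6, a relative of phytoene synthases, had log2 values of 5.33 and 5.42 with Blnc1 shRNA, against 5.99 and 6.06 with scramble. It was 1.57-fold lower (adjusted p = 0.00699). Ndufaf5, which hydroxylates an arginine of Ndufs7, had 5.49 and 5.63 with Blnc1 shRNA, against 6.20 and 6.14 with scramble, and was 1.53-fold lower (adjusted p = 0.00978). Its substrate subunit Ndufs7 was thus among the lower genes too, while its partner Ndufaf8 had 7.08 and 7.11 with Blnc1 shRNA, against 7.47 and 7.38 with scramble (log2 fold change -0.33, adjusted p = 0.0639). Ndufaf3 and Ndufaf4 bind each other and act early on the Q module. Ndufaf3 had 6.34 and 6.38 with Blnc1 shRNA, against 6.89 and 6.83 with scramble, and was 1.41-fold lower (adjusted p = 0.0171). Ndufaf4 had 7.43 and 7.44 with Blnc1 shRNA, against 7.98 and 7.80 with scramble, and was 1.37-fold lower (adjusted p = 0.0301). For Ndufaf4 this rests on the brightest of 2 probe sets. The other had 6.98 and 6.96 with Blnc1 shRNA, against 7.10 and 7.16 with scramble, and did not pass (log2 fold change -0.16). Its adjusted p, taken over all probe sets rather than over genes, was 0.332 by limma.

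Ndufaf1, which works with Ecsit and Acad9 on the membrane arm, had log2 values of 7.46 and 7.52 with Blnc1 shRNA, against 7.89 and 7.81 with scramble, just outside the threshold (log2 fold change -0.36, adjusted p = 0.0510). Ndufaf2, which helps the N module to attach, had 6.21 and 6.13 with Blnc1 shRNA, against 6.50 and 6.37 with scramble (log2 fold change -0.26, adjusted p = 0.133). The mean log2 values of the assembly factors lay between 5.70 and 7.67, and the median log2 fold change of the 5517 genes with means from 5 to 9 was 0.08. Their count of lower genes was 0 without knockdown replicate 1 and 2 without knockdown replicate 2, the 2 being Ndufaf5 and Ndufaf6. It was 3 without scramble replicate 1, 4 without scramble replicate 2 and 7 after quantile normalization.

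Ndufa4 and Ndufa4l2 carry complex I names, but Ndufa4 is a subunit of cytochrome c oxidase (complex IV), and Ndufa4l2 is its paralog, induced by hypoxia. Ndufa4l2 had log2 values of 3.72 and 3.48 with Blnc1 shRNA, against 4.18 and 4.70 with scramble, where the background was 2.55. The arrays were apart and spread more than those of other members, and Ndufa4l2 was 1.79-fold lower (log2 fold change -0.84 ± 0.18 SE, adjusted p = 0.0218). Ndufa4 had 10.76 and 10.78 with Blnc1 shRNA, against 10.74 and 10.73 with scramble. Its log2 fold change was 0.03 with a 95% interval from -0.20 to 0.26. Without knockdown replicate 1 or knockdown replicate 2, Ndufa4l2 no longer passed, with an adjusted p of up to 0.122.

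**Figure D3:**
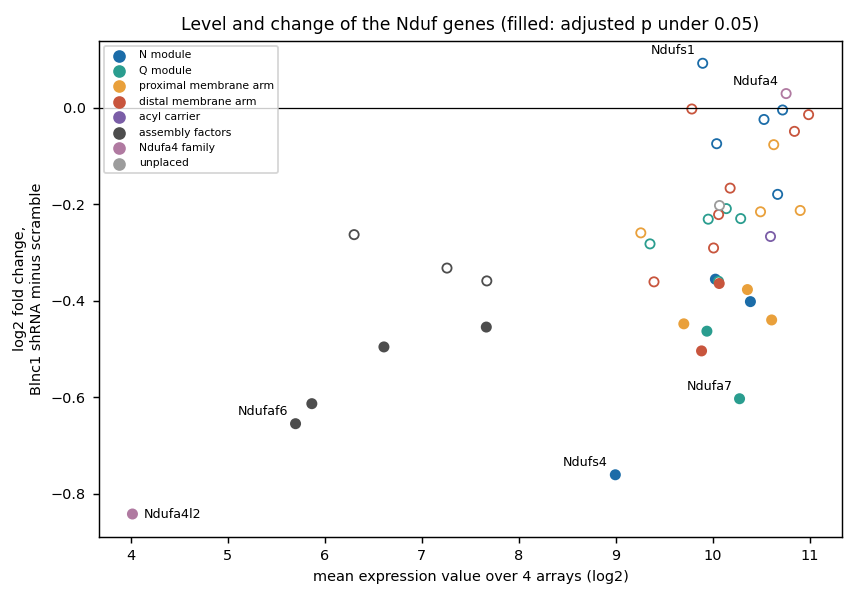
Log2 fold change (vertical axis, Blnc1 shRNA minus scramble) against the mean log2 value over the 4 arrays (horizontal axis) for the 42 Nduf genes, filled where the adjusted p was under 0.05. The assembly factors and Ndufa4l2 lie to the left with changes of -0.26 or lower, and most structural subunits lie at 9 or above.

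The change was also set against brightness. Across the 42 genes the mean log2 value and the log2 fold change correlated with a Pearson r of 0.62 and a Spearman rho of 0.58. This is across genes that share the same 4 arrays and is a description only, since brightness also depends on each probe. Within the 31 structural subunits at 9 or above, r was 0.30 and rho 0.33. Of the 24 Nduf genes with a mean of at least 10, 6 were lower (25%), and of the 9 with means from 9 to under 10, 3 were lower.

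Other probe sets of the same genes were examined as further readings of each transcript. The 42 genes had 75 probe sets, of which 24 were lower and 1 was higher in the Blnc1 shRNA cells by limma, against 5.38% and 8.73% of all probe sets. In these probe set readings, p-values were adjusted over the 45037 probe sets, not over genes. With any probe set counted, 18 genes had 1 that was lower. Without probe sets at background, 23 probe sets of 17 genes were lower. In the 22 genes with more than 1 probe set above background, the median log2 fold change was -0.29 for the brightest and -0.33 for the second brightest, which was the more negative in 11 of them. Ndufa7 had 5 probe sets, each lower, with log2 fold changes from -0.62 to -0.58. The second probe sets of Ndufs7 and Ndufa3 were lower as their brightest ones were, by -0.61 and -0.43. That of Ndufb4 was lower too, by -0.55, while its brightest one missed the threshold over probe sets (adjusted p = 0.0536). The second probe sets of Ndufv2, Ndufaf4 and Ndufa10 did not pass. Their log2 fold changes were -0.23 (adjusted p = 0.186), -0.16 (adjusted p = 0.332) and -0.34 (adjusted p = 0.139). Their brightest ones had -0.40, -0.45 and -0.38. The second one of Ndufa10 was dim, with a mean log2 value of 3.63, against 10.35 for its brightest.

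For several genes the probe sets differed. A second probe set of Ndufb5 had log2 values of 9.64 and 9.56 with Blnc1 shRNA, against 10.27 and 10.36 with scramble, and was lower (log2 fold change -0.71, adjusted p = 0.00660), while the brightest had -0.29 and did not pass. A probe set of Ndufb11 had 10.18 and 10.15 with Blnc1 shRNA, against 10.56 and 10.63 with scramble (log2 fold change -0.43, adjusted p = 0.0331). Its other two had -0.01 and 0.02. Ndufa12, whose brightest probe set had groups that overlapped, had a second one with 9.56 and 9.67 with Blnc1 shRNA, against 9.94 and 10.15 with scramble (log2 fold change -0.43, adjusted p = 0.0521). Its dimmest probe set, at background in both groups, was lower by the test (-0.54, adjusted p = 0.0403). The second probe set of Ndufv1 had 9.53 and 9.52 with Blnc1 shRNA, against 9.89 and 9.83 with scramble, without overlap (log2 fold change -0.33, adjusted p = 0.0682). A probe set of Ndufs8 was also lower (log2 fold change -0.45, adjusted p = 0.0271). The only higher one, a dim probe set of Ndufab1, had 3.64 and 3.64 with Blnc1 shRNA, against 2.75 and 2.67 with scramble (log2 fold change 0.93, adjusted p = 0.00244). The other three probe sets of Ndufab1 had log2 fold changes from -0.27 to -0.08. Ndufaf8, whose dimmer probe set had 0.02, was the third gene with signs that differed between its probe sets, beside Ndufab1 and Ndufb11. For Ndufs4 the dimmer probe sets had log2 fold changes of -0.37 and -0.35 and did not pass (adjusted p = 0.139 and 0.148). They lay near the background of 2.55, with mean log2 values of 3.91 and 2.52, against 8.99 for the brightest.

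**Figure D4:**
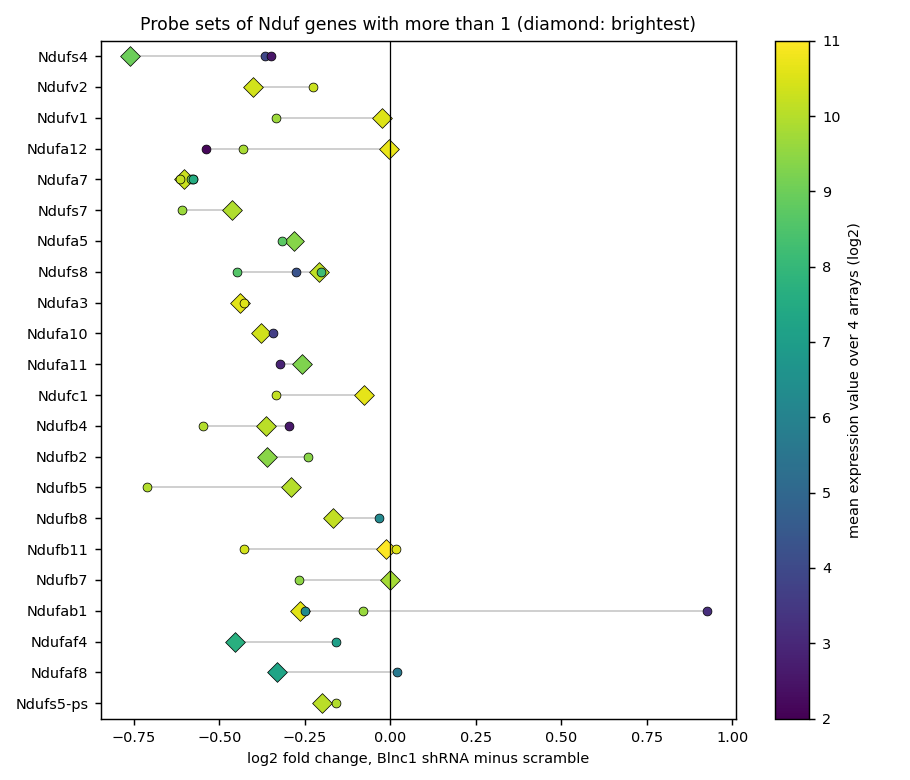
Log2 fold change (horizontal axis, Blnc1 shRNA minus scramble) of every probe set of the Nduf genes that have more than 1, coloured by mean log2 value, with a diamond for the brightest. The 5 probe sets of Ndufa7 fall together near -0.60, while those of Ndufab1 run from -0.27 to 0.93 and those of Ndufb5 lie at -0.29 and -0.71.

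Of 14 factors that build complex I without an Nduf name, 5 were lower and 1 was higher, with a median log2 fold change of -0.24. Lower were Dmac2 and Dmac1, which act on the distal membrane arm (-0.86 and -0.47), Chchd4, which forms disulphide bonds in imported proteins such as Ndufb10 (-0.74), Ecsit, the partner of Ndufaf1 (-0.60), and Tmem70 (-0.42), with adjusted p from 0.00263 to 0.0283. Acad9, another partner of Ndufaf1 that is related to acyl-CoA dehydrogenases, went the other way. It had log2 values of 6.40 and 6.55 with Blnc1 shRNA, against 5.71 and 5.37 with scramble, and was 1.91-fold higher (adjusted p = 0.00601). With the dimmest probe set above background in place of the brightest, 0 of the 14 factors were higher. The count of lower factors was 1 without knockdown replicate 1, 2 without knockdown replicate 2, 4 without scramble replicate 1 and 5 without scramble replicate 2.

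Supply of the iron-sulphur clusters and of ubiquinone that complex I needs was described by the same counts. Of 10 iron-sulphur cluster assembly genes, 4 were lower and 0 higher, with a median of -0.41: the scaffold gene Iscu (-0.61), Isca2 (-0.50), Bola3 (-0.43) and Glrx5 (-0.42). Of 10 ubiquinone synthesis genes, Coq8a (-0.93) and Coq9 (-0.37) were lower and 0 were higher. Of 11 regulators of respiratory chain genes, 5 were lower and 0 higher: Ppara (-1.85), Ppargc1b (-0.84), Esrra (-0.49), Tfam (-0.39) and Esrrg (-0.39). The median of that list was -0.0045. Other regulators on it, whose motifs were searched above, passed in neither direction. Nrf1 had a log2 fold change of -0.0027 and Gabpb1 of 0.12, with groups that overlapped. Gabpa (0.25, adjusted p = 0.131 by limma) and Yy1 (0.27, adjusted p = 0.113) had both knockdown arrays above both scramble arrays. Without knockdown replicate 1 and without knockdown replicate 2 the counts were 0 and 0 for cluster assembly, 1 and 1 for ubiquinone synthesis, and 2 and 2 for the regulators. Without scramble replicate 1 they were 2, 1 and 3 in the same order of lists. After quantile normalization they were 7, 4 and 5, and after centring 4, 1 and 3, with a median of 0.060 for the regulators.

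Other respiratory complexes were set beside the Nduf genes with no test of the difference between lists. Complex II had 0 of 4 genes called in either direction by limma (0 at an unadjusted p under 0.05) and a median log2 fold change of -0.13. Complex III had 3 of 8 lower, Uqcrc1 (-0.61), Uqcr10 (-0.40) and Uqcr11 (-0.38), and a median of -0.24. Complex IV had 3 of 14 lower, Cox8b (-0.88), Cox7a1 (-0.60) and Cox6b2 (-0.40), and a median of -0.16. Cox7a1 and Cox8b were also on the brown adipocyte marker list. Complex V had 0 of 15 called (1 lower and 0 higher at an unadjusted p under 0.05) and a median of -0.10. These counts depended on the setting as the Nduf count did. With a limma prior that follows brightness, the counts lower were 2 for complex II, 7 for complex III, 8 for complex IV and 7 for complex V, which then also had 3 higher. Complex III had 1 lower after quantile normalization and 1 after centring. Mitochondrial ribosomal proteins, which translate the mitochondrially encoded subunits, had 37 of 73 lower, 0 higher and a median of -0.36, led by Mrpl38 (-1.05) and Mrpl4 (-0.90). Without knockdown replicate 1 the counts lower were 1, 1 and 10 for complexes III and IV and the ribosomal proteins, and without knockdown replicate 2 they were 0, 1 and 8. They were 1, 2 and 28 without scramble replicate 1, and 1, 2 and 29 without scramble replicate 2.

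**Figure D5:**
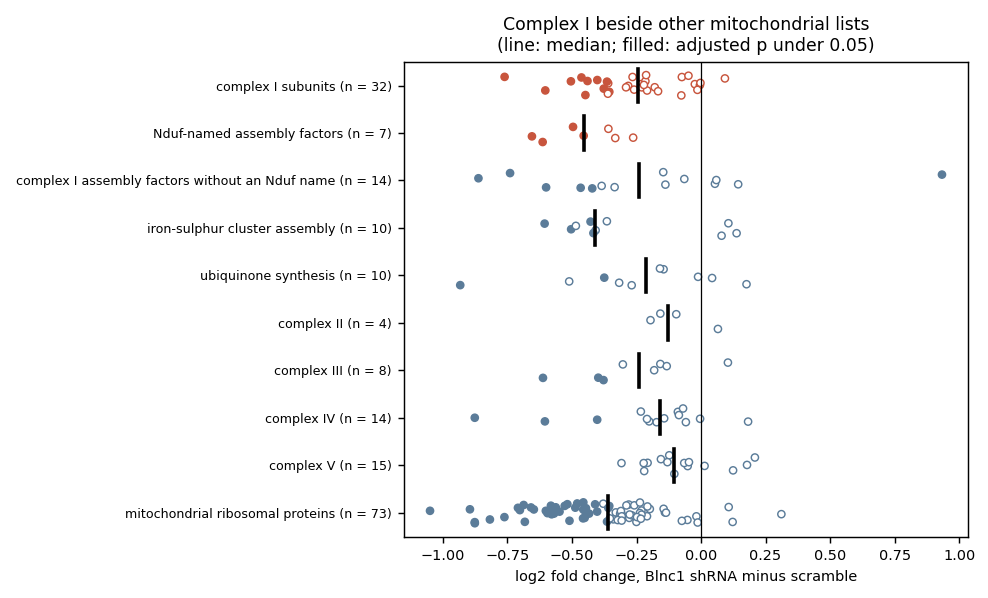
Log2 fold change (horizontal axis, Blnc1 shRNA minus scramble) of each gene of the Nduf groups and of other mitochondrial lists, 1 list a line, with filled points for an adjusted p under 0.05 and a short line for the median. The medians run from -0.45 for the Ndufaf assembly factors to -0.10 for complex V among the structural and assembly lists, and Acad9 is the filled point at 0.93.

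RNA levels of some cell type markers, and RNA quality controls, differed between the groups beside these results. The general adipocyte markers were bright in both, with summed log2 values of 72.4 and 72.0 with Blnc1 shRNA, against 72.1 and 72.1 with scramble, and 1 of 7 (Cebpa) was lower. Brown adipocyte markers summed to 49.3 and 49.8 with Blnc1 shRNA, against 55.5 and 55.4 with scramble, with 5 of 8 lower and 1 (Elovl3) higher. Ucp1 had 5.53 and 5.98 with Blnc1 shRNA, against 7.51 and 7.73 with scramble, above background in both. Preadipocyte or fibroblast markers summed to 44.0 and 44.0 with Blnc1 shRNA, against 36.8 and 37.7 with scramble, and 7 of 8 were higher. Hepatocyte markers summed to 26.7 and 22.4 with Blnc1 shRNA, against 38.1 and 37.5 with scramble, and 7 of 8 were lower. These 8 were dim, with mean log2 values from 2.11 to 5.18 and 1 at background in both groups. Skeletal muscle markers summed to 19.9 and 20.0 with Blnc1 shRNA, against 19.7 and 19.2 with scramble, and macrophage markers to 16.8 and 17.8, against 17.0 and 16.7. Endothelial markers summed to 14.0 and 13.8 with Blnc1 shRNA, against 13.9 and 13.9 with scramble. Most single values of these last 3 lists were near background, and 1 marker of each was higher (Actn3, Adgre1 and Tek). The 3' minus 5' log2 difference of the Actb controls was 1.77 and 1.88 with Blnc1 shRNA, against 0.99 and 1.15 with scramble, and that of Gapdh was 0.34 and 0.40, against 0.09 and 0.04. The control for the central part of 18S ribosomal RNA read 6.64 and 7.01 with Blnc1 shRNA, against 5.13 and 4.43 with scramble. Probe sets above background made up 60.4% and 60.3% with Blnc1 shRNA, against 62.8% and 63.0% with scramble. The part of these differences in the Nduf results was not tested. In such bulk samples, fewer cells of a type and less RNA per cell cannot be told apart.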

How the data were processed

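Gene expression was measured on 4 arrays, 2 of Blnc1 shRNA and 2 of scramble brown adipocytes, grouped by the labels. The authors deposited log2 expression values, 1 per probe set and array. The submitters' processing notes list limma, affy and RMA without versions. The sources used here do not give the exact normalization, and no scanner file was used. Of 45141 probe sets, 104 controls were left out. Of the 45037 tested, 28898 had exactly 1 symbol in the platform annotation, 551 several and 15588 none, which gave 17097 genes by the brightest probe set.

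Groups were compared with limma 3.58.1 in R 4.3.3, by a two-sided moderated test (lmFit, eBayes) that held only the group and was fitted to the 45037 probe sets together. P-values were adjusted over the 17097 genes by Benjamini-Hochberg with a threshold of 0.05. Where single probe sets are described, p-values were adjusted over the 45037 probe sets instead. The fit had 2 residual and 4.93 prior degrees of freedom and was tested on simulated data. Standard errors and 95% intervals of log2 fold changes are from this fit. The background log2 value, 2.55, was the highest antigenomic control. Replicates correlated at r = 0.996 (Blnc1 shRNA) and 0.994 (scramble) across probe sets, and 2 arrays per group limit the precision. Promoters came from RefSeq (GRCm38.p6), matched by both gene ID and symbol. Plots used matplotlib 3.10.9.

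The members and lists were chosen with earlier results of these data known. Named genes were every called Nduf gene, every core subunit, Ndufa4, Ndufa4l2 and every assembly factor, the 5 largest changes not called, the brightest and dimmest gene of each module, genes whose probe sets differ in sign, and up to 4 called genes of each other list. Nduf genes outside this rule, further called genes of other lists, and Nrf1, Gabpa, Gabpb1 and Yy1 were added once their values were known.

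The alternatives tried were other scalings (quantile, or each array centred on its median), eBayes with a trend, robust eBayes, a filter on the dimmest 40 percent of genes, other probe set rules (their mean, none with the suffixes a, s and x, or each separately), a block for the replicate number, and each array left out, where a lone array was assumed to vary like the other group.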

Additional observations from a re-analysis of the deposited data

How the results depend on the processing

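Of the 42 Nduf genes, 15 were lower as reported. The count was 1 to 10 with an array left out (1 without Blnc1 shRNA replicate 1, 3 without Blnc1 shRNA replicate 2), 32 for eBayes with a trend, and 24 of 75 for every probe set on its own. It was within 1.5 times the reported count for quantile normalization (15), centring (11), the dimmest 40 percent left out (22), robust eBayes (14), the mean of all probe sets (19) and the suffixes left out (15 of 33). The cause of these differences was not tested. Apart from eBayes with a trend and every probe set on its own, the shares of all genes called in these settings are not given here. The count higher was 0 in each of these but every probe set on its own, where it was 1, and the dimmest probe set above background, an alternative chosen after seeing the data, where it was 1 higher and 16 lower.

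The median log2 fold change, -0.27 as reported, was -0.32 with quantile normalization, -0.21 with centring, -0.29 with the mean of all probe sets, -0.36 with the suffixes left out, -0.31 with the dimmest probe set, -0.32 with every probe set on its own, and -0.30 to -0.28 with an array left out. The median of all genes was -0.03 with quantile normalization and 0.03 with centring.

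Signs turned only for genes that were not called as reported. With quantile normalization, Ndufa12 had 0.037, Ndufb11 0.023 and Ndufv1 0.019. With centring, Ndufa12 had 0.060, Ndufb11 0.050, Ndufb7 0.062, Ndufb9 0.016 and Ndufv1 0.040. With an array left out, the values ran from -0.068 to 0.059 for Ndufa12, from -0.052 to 0.024 for Ndufb11, from -0.052 to 0.047 for Ndufb7 and from -0.076 to 0.028 for Ndufv1. Ndufab1 had 0.083 with the mean of all probe sets and 0.93 with the dimmest one, and Ndufaf8 had 0.020 with the suffixes left out and 0.020 with the dimmest one. Over the 42 genes and all alternatives, 462 values kept their direction and side of the threshold, 42 newly passed it, 56 no longer passed it and 19 turned sign.

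The replicate number as a block gave 12 lower and 0 higher genes. Same-numbered arrays deviated together with a correlation of 0.036 over 2 pairs, so the labels' numbers are not shown to pair the samples.

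With 2 arrays a group, most calls were lost when a knockdown array was left out, with Ndufs4 the 1 gene called without each of the 4 arrays. The exact normalization is unstated, Blnc1 was not measured by name, and saturation of the bright Nduf probe sets was not tested.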
